A study of Mus musculus with 12 samples.

Results

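Described here are the genes of the V-ATPase and of vacuolar protein sorting, chosen by symbol alone: every gene whose symbol begins with Atp6v, Atp6ap or Vps followed by a digit, without 2 symbols that mark Atp6v0c pseudogenes. The rule took 55 of the 17564 genes in the deposited tables, 20 V-ATPase genes and 35 Vps genes, and all 55 are annotated as protein coding. RNA-seq was done on the ventral hippocampus of male C57BL/6 mice. WT animals and BDNF het-Met animals, knock-in heterozygotes for the Val66Met form of brain-derived neurotrophic factor, drank corticosterone (CORT) or vehicle (VEH). CORT, the main glucocorticoid of rodents, was given at 25 mg/l in 1% ethanol for 6 weeks starting at 2 months of age. VEH was the 1% ethanol without CORT, so all 4 groups received ethanol: WT CORT and WT VEH, BDNF het-Met CORT and BDNF het-Met VEH. Each group had 3 libraries, each made from pooled RNA of 2 animals. The tables hold 1 fitted value per gene and comparison, so the reads counted per library are unknown and no value of a single library can be given.

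The V-ATPase is a proton pump built of a V1 sector in the cytosol, which hydrolyses ATP, and a V0 sector in the membrane, which carries the protons. It acidifies lysosomes, endosomes and synaptic vesicles, and in neurons the gradient it makes drives the loading of neurotransmitter. The Vps genes were named after yeast mutants that missort vacuolar proteins. Most of their products move cargo between endosomes, the Golgi and lysosomes: retromer and retriever recycle membrane proteins, HOPS and CORVET tether and fuse endosomes and lysosomes, ESCRT complexes sort ubiquitinated receptors into multivesicular bodies, and GARP and EARP tether vesicles on their way back to the Golgi or to the surface. VPS13 proteins are long, rod-shaped proteins that carry lipids between membranes at organelle contacts. BDNF itself is sorted in this system, since sortilin-family receptors bind its precursor and its receptor TrkB signals from endosomes.

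Levels are given as mean log2 CPM (counts scaled to the library total) over the libraries, and the effect of CORT as a log2 fold change with its standard error, positive where the gene was higher under CORT. Levels and the effect within each genotype come from the authors' deposited limma-voom fit. Averages over genotypes, differences between them and centred values were computed from these. For such values a limma p is the tail of t with the fit's moderated errors and degrees of freedom. A gene was called at an unadjusted limma p below 0.05, and adjusted p stands for the Benjamini-Hochberg value over all 17564 genes. Hippocampal principal neuron markers were expressed: 8 of 8 were in the tables, with a median of 7.18 log2 CPM. The listed 7 residual degrees of freedom are fewer than the 8 that 12 libraries in 4 groups leave, and ordinary standard errors in WT were 1.124 times those in BDNF het-Met mice (median over genes), where 3 against 2 libraries would give 1.118. Which libraries entered the fit is not given in the sources used here.

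Few members were called in WT mice. There, 2 of 55 passed, 1 higher (Vps13c) and 1 lower (Vps26c), or 3.64% of the members against 3.83% of all genes (2.25% higher and 1.57% lower). In BDNF het-Met mice 7 of 55 members (12.7%) passed against 13.2% of all genes. Of these, 5 rose (Vps13a, Vps13b, Vps13c, Vps13d and Vps50) and 2 fell (Vps37d and Vps9d1), where 6.55% of all genes rose and 6.64% fell. With the effect averaged over both genotypes 5 of 55 passed (9.09%) against 13.3% of all genes. The 4 that rose were the VPS13 genes and the 1 that fell was Vps26c, where 7.17% of all genes rose and 6.18% fell. The balance of directions depended on the centring: with each gene set against the median of its expression quintile, 3 members rose and 3 fell in BDNF het-Met mice, and 3 rose and 3 fell in the average, where Vps13a missed the threshold (limma p 0.0668) and Vps26a and Vps28 passed it as lower. In each comparison the share of members called lay near or below that of all genes. No member differed between the genotypes in its CORT effect at p below 0.05, where 2.41% of all genes did. After adjustment over all genes by limma and Benjamini-Hochberg no member passed. The smallest adjusted limma p of a member was 0.999 in WT, 0.264 in BDNF het-Met and 0.197 for the average. Of all 17564 genes, 0 passed at 0.05 in WT, 0 in BDNF het-Met, 0 for the difference and 13 for the average. The study's rule of an unadjusted p below 0.05 and a fold change above 1.3 took 0 members in either genotype, beside 1.25% of all genes in WT animals and 3.24% in BDNF het-Met mice. The median log2 fold change of the members was -0.01 in WT animals and 0.01 in BDNF het-Met mice, and that of all genes was 0.00 and -0.01.

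**Figure D1:**
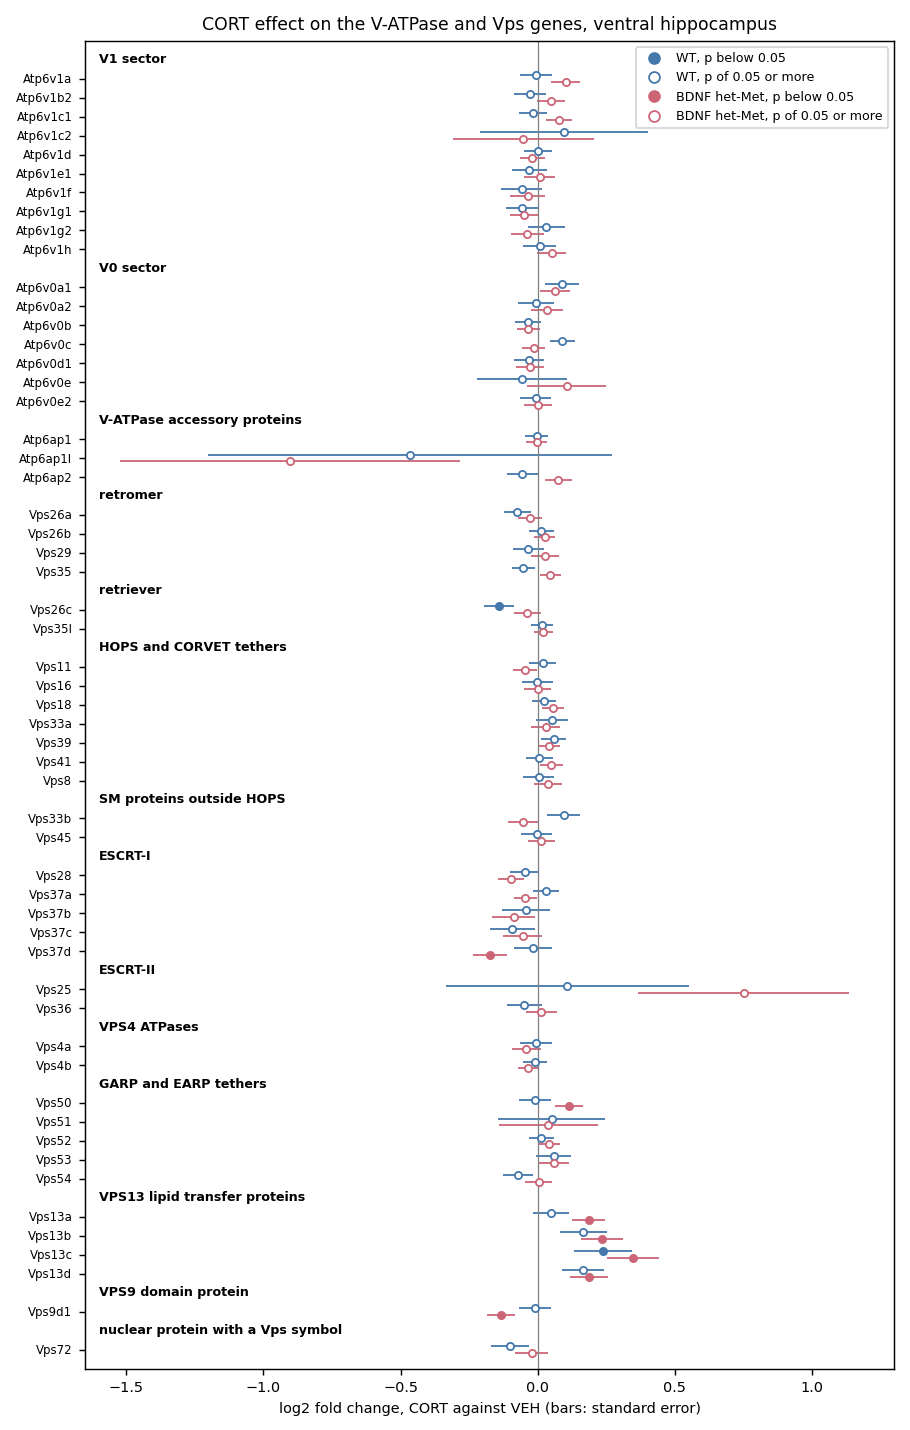
Log2 fold change under CORT (x axis, CORT against VEH) of the 55 members, grouped by role on the y axis, in WT (blue) and BDNF het-Met mice (red); points are the fitted values, bars their standard errors, and filled points have an unadjusted limma p below 0.05. The VPS13 genes stand to the right of 0 in both genotypes, from 0.05 to 0.35, while the V1 and V0 subunits lie between -0.06 and 0.11; the long bars belong to weakly expressed genes such as Atp6ap1l and Vps25.

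The VPS13 genes were the only role group in which every member rose in a comparison, and they did so in BDNF het-Met mice and in the average. The family median was a log2 fold change of 0.17 in WT animals and 0.21 in BDNF het-Met mice. Vps13c (ENSMUSG00000035284, chromosome 9, 67840396 to 67995638, plus strand, GRCm38) had the highest fold change of the well-expressed members. It is a lipid transporter at contacts of the endoplasmic reticulum with late endosomes and lysosomes, and its human counterpart is a Parkinson disease gene. Its log2 fold change was 0.24 ± 0.11 (SE) in WT mice, with a limma p of 0.0461 (0.0977 with ordinary standard errors and 0.0634 centred on the expression quintile, so the WT call was lost in both), and 0.35 ± 0.09 in BDNF het-Met mice, with a limma p of 0.00365. In BDNF het-Met mice this was a 1.27-fold rise, and its 95% interval on the log2 scale ran from 0.14 to 0.56.

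Vps13b (chromosome 15, 35371160 to 35931229, plus strand), whose human counterpart is mutated in Cohen syndrome and which acts at the Golgi, rose by 0.24 ± 0.08 in BDNF het-Met mice (limma p 0.0107). In WT mice its value was 0.17 ± 0.09, with a limma p of 0.0777. Vps13d (chromosome 4, 144972622 to 145195005, minus strand), which is needed for mitochondrial clearance and for peroxisomes, was the most abundant of the family at 7.54 log2 CPM. It rose by 0.19 ± 0.07 in BDNF het-Met mice (limma p 0.0204) and stood at 0.16 ± 0.08 in WT mice (limma p 0.0559). Vps13a (chromosome 19, 16615366 to 16780933, minus strand), the chorea-acanthocytosis gene, rose by 0.19 ± 0.06 in BDNF het-Met mice (limma p 0.00952). Its WT value was lower than that of the other members of the family, at 0.05 ± 0.07 (limma p 0.474). For none of the VPS13 genes was the difference between genotypes called, and for Vps13a its 95% interval ran from -0.06 to 0.33 (log2, BDNF het-Met minus WT; limma p 0.151).

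Averaged over genotypes, the rise was 0.29 ± 0.07 for Vps13c (limma p 0.00169), 0.20 ± 0.06 for Vps13b (0.00503), 0.17 ± 0.05 for Vps13d (0.00597) and 0.12 ± 0.04 for Vps13a (0.0228). These averages combine 2 comparisons that share no libraries. Per kb of exon the family members had levels close to each other, in the order Vps13c (3.10 log2 CPM per kb), Vps13d (2.91), Vps13a (2.33) and Vps13b (2.27). The gap between Vps13c and Vps13d was 0.19, with a spread between libraries of about 0.17 on that gap.

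The VPS13 genes also have the longest transcripts of the members, at 10838 bases (Vps13a), 11527 (Vps13c), 13757 (Vps13b) and 15849 (Vps13d), where the median member has 3161. Across all protein-coding genes the CORT effect moved with transcript length in both genotypes. Genes whose longest transcript was up to 1 kb had a median log2 fold change of -0.04 in WT animals and -0.07 in BDNF het-Met mice (506 genes). The median was 0.10 in WT animals and 0.11 in BDNF het-Met mice for the 328 genes of 10 to 15 kb, and 0.19 and 0.15 for the 68 genes above 15 kb. Among the 273 protein-coding genes above 10 kb with at least 5 log2 CPM, 42.9% rose in BDNF het-Met mice at a limma p below 0.05, none fell, and 61.5% rose in the average. A rise was thus common among genes of this length.

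When each gene's log2 fold change was set against the median of its length bin, an alternative chosen after seeing the data, Vps13c stood 0.23 above its bin in BDNF het-Met mice (limma p 0.0308) and 0.14 above it in WT mice (0.216). Vps13b stood 0.12 above its bin in BDNF het-Met mice (0.141), Vps13a 0.07 (0.25) and Vps13d 0.03 (0.646). In WT mice Vps13b stood 0.07 above its bin (0.442), while Vps13a and Vps13d stood below theirs, at -0.05 (0.469) and -0.02 (0.763). In the average, Vps13c was the only member called after this centring, at 0.19 (0.0234), and Vps13d and Vps13a were at 0.00 and 0.01. Why the effect moved with length, and whether RNA quality or library make-up differed between the groups, was not tested and cannot be read from fitted values. Over the 55 members, Spearman's rho between log2 transcript length and log2 fold change was 0.38 in WT animals and 0.57 in BDNF het-Met mice, and without the VPS13 genes it was 0.25 and 0.48 over 51 members. Over all 14474 protein-coding genes it was 0.20 and 0.27. These are descriptions across genes that share the same libraries.

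**Figure D2:**
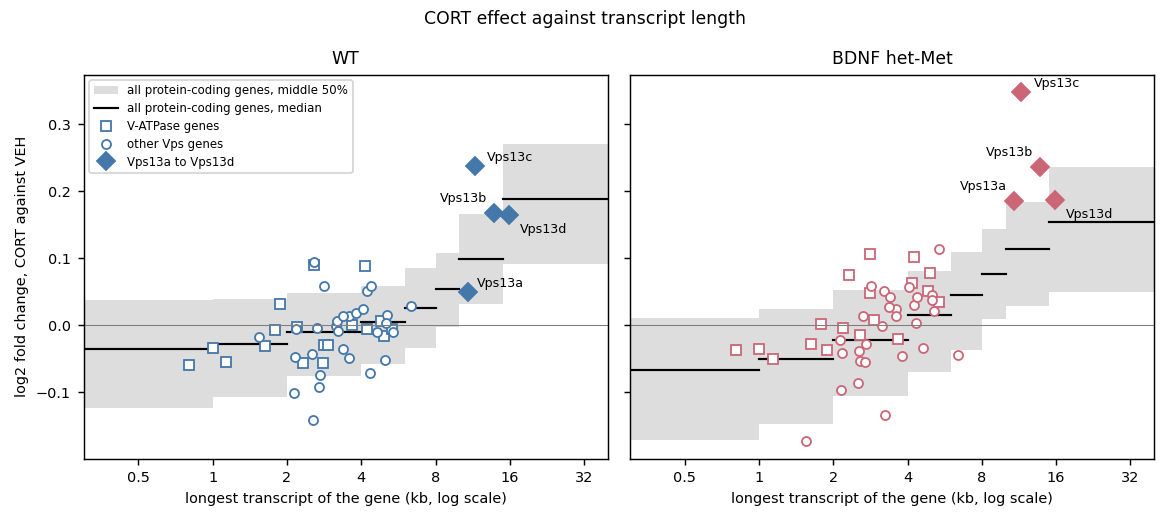
Log2 fold change under CORT (y axis) against the length of the gene's longest transcript (x axis, kb, log scale) in WT (left) and BDNF het-Met mice (right); black lines and grey boxes are the median and middle 50% of all protein-coding genes in 8 length bins, open squares V-ATPase genes, open circles other Vps genes and filled diamonds the VPS13 genes. Members with a mean below 1 log2 CPM are left out. The bin medians rise with length in both genotypes, and of the VPS13 genes Vps13c and Vps13b lie above the grey box in both (Vps13b by a narrow margin in WT), while Vps13d lies inside it in both.

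Promoter sequences were read to see whether the genes that moved together share letters bound by the glucocorticoid receptor, the transcription factor that CORT activates. RefSeq promoters on GRCm38.p6 (250 bases before to 50 bases after the start) were at hand for 36 of the 55 members, and of the VPS13 genes for Vps13a and Vps13d. The half-site AGAACA, searched on both strands, was in 19.0% of all 32851 promoters and in 6 of 44 promoters of members (13.6%). These belong to 6 of the 36 member genes (Atp6ap2, Atp6v0b, Vps13a, Vps26c, Vps45 and Vps4b). Capitals mark the half-site in the Vps13a promoter (chr19:16780884-16781183, minus strand), where it lies on the opposite strand at position -180 from the start. No letters are marked in the Vps13d promoter shown (chr4:145194956-145195255, minus strand), which holds none. The other Vps13d promoter (chr4:145190617-145190916, minus strand) holds none either and is not shown.
Vps13a: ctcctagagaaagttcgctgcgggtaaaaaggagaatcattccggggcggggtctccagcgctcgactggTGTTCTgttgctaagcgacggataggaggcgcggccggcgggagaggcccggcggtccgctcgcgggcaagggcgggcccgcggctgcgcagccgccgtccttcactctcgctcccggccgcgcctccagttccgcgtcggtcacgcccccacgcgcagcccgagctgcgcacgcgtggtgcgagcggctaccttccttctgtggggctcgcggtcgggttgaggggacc
Vps13d: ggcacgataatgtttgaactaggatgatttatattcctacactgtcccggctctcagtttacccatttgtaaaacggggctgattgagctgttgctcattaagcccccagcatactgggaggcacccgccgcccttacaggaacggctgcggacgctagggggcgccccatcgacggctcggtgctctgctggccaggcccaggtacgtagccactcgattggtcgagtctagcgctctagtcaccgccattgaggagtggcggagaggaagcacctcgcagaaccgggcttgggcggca
Paired half-sites facing each other across 3 bases were in 0.00913% of all promoters and in none of the members. A match of letters is a description and not a bound site.

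The V1 sector gave no called member in either genotype, in the average or for the difference. Of its 13 listed genes 10 were in the tables, and Atp6v1b1, Atp6v1e2 and Atp6v1g3, forms known from kidney, testis and other tissues, were not. The median of the sector was a log2 fold change of -0.01 in WT animals and -0.01 in BDNF het-Met mice, with 4 and 5 of 10 above 0. Atp6v1a (chromosome 16, 44085402 to 44139705, minus strand), the catalytic A subunit and the most abundant member of all at 9.64 log2 CPM, had -0.01 ± 0.06 in WT (limma p 0.929) and 0.10 ± 0.05 in BDNF het-Met mice (limma p 0.0782). Atp6v1b2, the brain form of the nucleotide-binding B subunit, was at -0.03 ± 0.06 and 0.05 ± 0.05. Atp6v1h, which couples ATP hydrolysis to rotation, was at 0.01 ± 0.06 and 0.05 ± 0.05.

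The V0 sector likewise had no called member by the moderated test, with 7 of 9 listed genes in the tables (Atp6v0a4 and Atp6v0d2 were not). Its medians were -0.01 in WT animals and 0.00 in BDNF het-Met mice. Atp6v0a1 (chromosome 11, 101009452 to 101063719, plus strand), the a subunit of synaptic vesicles, was the most abundant at 9.06 log2 CPM and had 0.09 ± 0.06 in WT (limma p 0.172) and 0.06 ± 0.05 in BDNF het-Met mice (limma p 0.274). Atp6v0c, whose product forms the proton-binding ring, had 0.09 ± 0.05 in WT (limma p 0.078, and 0.0479 with ordinary standard errors) and -0.02 ± 0.04 in BDNF het-Met mice (limma p 0.716). Up to 465 bases of its transcript match the pseudogene Atp6v0c-ps2 at 99.8% identity, so its count is uncertain where reads could be split between them. Among the accessory proteins, Atp6ap1 (chromosome X, 74297097 to 74304721, plus strand), which helps assemble V0, was at 0.00 ± 0.04 in both genotypes. Atp6ap2, the prorenin receptor, was at -0.06 ± 0.06 and 0.07 ± 0.05. Atp6ap1l, at 0.47 log2 CPM, had standard errors of 0.74 and 0.62 at which only very large changes could pass.

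The V-ATPase values were precise enough to bound the effect. For the 15 V1 and V0 subunits with at least 5 log2 CPM, the 95% intervals of the CORT effect reached at most from -0.22 (Atp6v1f) to 0.22 (Atp6v0a1) in WT animals and from -0.18 (Atp6v1f) to 0.22 (Atp6v1a) in BDNF het-Met mice. In linear terms the outermost bounds were 0.858-fold and 1.17-fold in WT animals and 0.883-fold and 1.16-fold in BDNF het-Met mice. Changes of up to that size remain within the intervals.

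Levels per length showed which paralogues were the most abundant as RNA. Divided by all exonic bases of the gene, Atp6v1g2, the neuronal G subunit, was highest in V1 at 7.68 log2 CPM per kb. Atp6v1b2 (7.11) and Atp6v1a (7.05) followed and differed by less than the spread between libraries, and Atp6v1e1 came next at 6.17. These 4 encode the subunits that each complex holds in several copies (A, B, E and G). The subunits held in a single copy lay lower, with Atp6v1f at 5.79, Atp6v1d at 5.69, Atp6v1c1 at 5.57 and Atp6v1h at 3.88, and Atp6v1f and Atp6v1d differed by about the spread between libraries. Atp6v1g1, the widely expressed G form, was at 4.95, below Atp6v1g2 by 2.73 on the log2 scale or 6.63-fold. It also lay below the single-copy Atp6v1f, Atp6v1d and Atp6v1c1. Up to 357 bases of Atp6v1g1 match Gm13453 at 99.4% identity, and up to 205 of Atp6v1f match AC169506.3 at 98.5%. Their levels are uncertain where reads could be split. Atp6v1c2 was at -0.79, 82.2-fold below Atp6v1c1.

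In V0 the order was Atp6v0e2 (7.25 log2 CPM per kb), Atp6v0d1 (6.80), Atp6v0a1 (6.34), Atp6v0b (5.91), Atp6v0c (5.52), Atp6v0a2 (3.10) and Atp6v0e (2.06). Each step was larger than the spread between libraries. The ring subunit Atp6v0c, held in several copies, lay below Atp6v0e2, Atp6v0d1, Atp6v0a1 and Atp6v0b. Its level is uncertain where reads could be split with Atp6v0c-ps2. The order of Atp6v0d1, Atp6v0a1 and Atp6v0b turned when the longest transcript gave the length. Atp6v0a1 exceeded Atp6v0a2, the a subunit of the Golgi and endosomes, 9.47-fold. Atp6v0e2 exceeded Atp6v0e 36.3-fold. Tcirg1, the a subunit best known from osteoclasts, was lower still at 0.94 log2 CPM per kb.

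**Figure D3:**
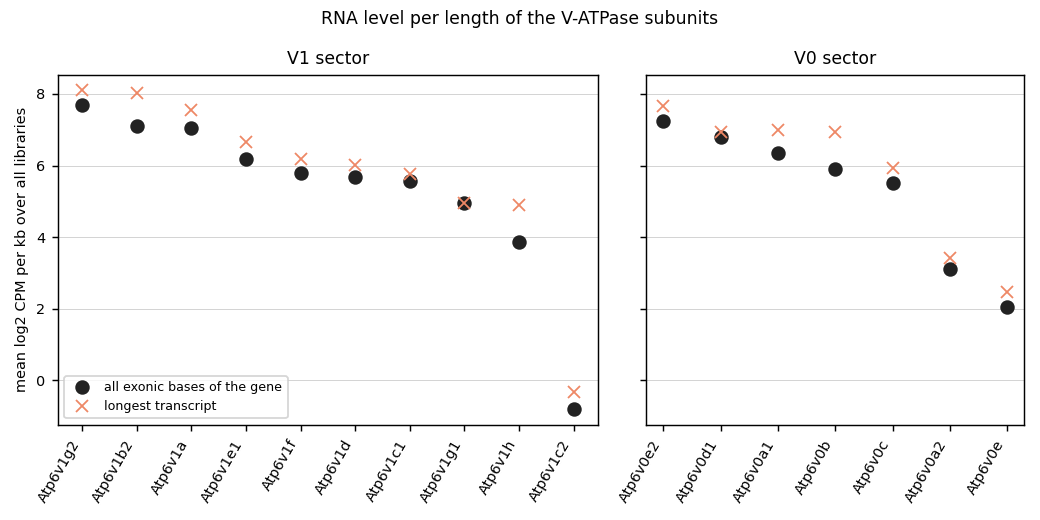
RNA level of the V1 (left) and V0 (right) subunits as mean log2 CPM per kb over all libraries (y axis), ordered by level (x axis); black points divide by all exonic bases of the gene and orange crosses by its longest transcript. Atp6v1g2, Atp6v1b2 and Atp6v1a lead V1 and Atp6v0e2 leads V0 by both lengths, and Atp6v1c2 is lowest at -0.79.

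Promoter windows of V-ATPase and Vps genes held letters that CLEAR elements are known for, the sites of the lysosomal transcription factor TFEB and its relatives. The palindrome TCACGTGA, which reads the same on both strands and contains the E-box CACGTG, was in 0.974% of all promoters. It was in 7 of 44 promoters of members, belonging to 6 of 36 genes: Atp6v0d1, Atp6v0e, Atp6v1a, Vps16, Vps26a and Vps33a. The E-box CACGTG alone was in 7.15% of all promoters and in 9 of 44 promoters of members (20.5%). These belong to 8 of the 36 genes, the 6 above with Atp6v0b and Vps50. The windows shown carry the palindrome in capitals, with up to 26 bases on each side, and come from chr16:44139358-44139417 for Atp6v1a, chr8:105566035-105566094 for Atp6v0d1, chr17:26676372-26676431 for Atp6v0e, chr2:130424275-130424334 for Vps16, chr10:62486717-62486776 for Vps26a and chr5:123572995-123573070 for Vps33a, on the strand of each gene.
Atp6v1a: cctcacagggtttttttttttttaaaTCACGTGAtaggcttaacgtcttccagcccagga
Atp6v0d1: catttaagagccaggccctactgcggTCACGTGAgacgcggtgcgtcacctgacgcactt
Atp6v0e: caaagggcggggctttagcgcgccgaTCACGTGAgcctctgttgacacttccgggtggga
Vps16: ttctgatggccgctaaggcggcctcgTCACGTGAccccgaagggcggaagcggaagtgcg
Vps26a: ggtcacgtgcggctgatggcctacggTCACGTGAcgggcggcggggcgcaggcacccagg
Vps33a: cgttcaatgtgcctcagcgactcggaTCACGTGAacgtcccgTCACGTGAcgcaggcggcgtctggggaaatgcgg
None of these 6 genes was called with the fold changes as deposited. With each gene centred on the median of its expression quintile, Vps26a was called as lower in the average, at -0.08 (limma p 0.0331). Their log2 fold changes lay between -0.07 (Vps26a) and 0.05 (Vps33a) in WT mice and between -0.03 (Atp6v0d1 and Vps26a) and 0.11 (Atp6v0e) in BDNF het-Met mice.

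Retromer, the coat that returns receptors from endosomes to the Golgi and the surface, had no called member among its 4 genes with the fold changes as deposited. Vps35 (chromosome 8, 85260392 to 85299802, minus strand), its scaffold and another Parkinson disease gene in humans, was at -0.05 ± 0.04 in WT (limma p 0.24) and 0.05 ± 0.04 in BDNF het-Met mice (limma p 0.254). The other retromer subunits ranged from -0.07 (Vps26a) to 0.01 (Vps26b) in WT animals and from -0.03 (Vps26a) to 0.03 (Vps29) in BDNF het-Met mice. In retriever, which recycles integrins and other receptors independently of retromer, Vps26c (chromosome 16, 94497783 to 94526830, minus strand) fell by 0.14 on the log2 scale in WT mice, with a standard error of 0.05 (limma p 0.0257). In BDNF het-Met mice it was at -0.04 ± 0.05 (limma p 0.445), and averaged over genotypes it fell by 0.09 ± 0.04 (limma p 0.0319). The difference between genotypes was not called (limma p 0.187). Vps35l, its partner in the complex, stood at 0.01 ± 0.04 and 0.02 ± 0.04.

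In the HOPS and CORVET tethers 0 of 7 genes were called, with medians of 0.02 in WT animals and 0.04 in BDNF het-Met mice. Vps41 (chromosome 13, 18717286 to 18866811, plus strand), a HOPS subunit and the most abundant of them at 7.69 log2 CPM, was at 0.01 ± 0.05 (limma p 0.902) and 0.05 ± 0.04 (limma p 0.277). The core subunits Vps11, Vps16, Vps18 and Vps33a, shared by both tethers, lay between 0.00 and 0.05 in WT animals and between -0.05 and 0.06 in BDNF het-Met mice. Of the SM proteins outside HOPS, Vps33b was at 0.09 ± 0.06 in WT animals and -0.05 ± 0.05 in BDNF het-Met mice, without a call for the difference (limma p 0.0961), and Vps45 was at 0.00 ± 0.06 and 0.01 ± 0.05.

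The ESCRT-I genes all had values below 0 in BDNF het-Met mice, and 1 of the 5 was called. Vps37d (chromosome 5, 135072900 to 135078266, minus strand), 1 of the alternative VPS37 subunits, fell by 0.17 with a standard error of 0.06 in these mice (limma p 0.0188) and was at -0.02 ± 0.07 in WT mice (limma p 0.807). The 95% interval of the difference between genotypes ran from -0.36 to 0.05. Vps28, a core ESCRT-I subunit, was at -0.05 ± 0.05 and -0.10 ± 0.05 (limma p 0.391 and 0.0644). Vps37a, the most abundant VPS37 gene, was at 0.03 ± 0.05 and -0.04 ± 0.04. Per kb it was at 3.64 log2 CPM, followed by Vps37d at 3.35, Vps37c at 2.73 and Vps37b at 1.92. Antisense exons of Hip1r cover 32.9% of the exonic bases of Vps37b, so its value is uncertain if strand was not used in counting.

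In ESCRT-II, Vps36 was at -0.05 ± 0.06 in WT animals and 0.01 ± 0.06 in BDNF het-Met mice. Vps25 had the highest log2 fold change of any member, 0.75 ± 0.38 in BDNF het-Met mice, without passing (limma p 0.077), at a level of only -0.80 log2 CPM. Of its exonic bases 67.2% are also exons of Ramp2 on the same strand, and reads in them cannot be told apart by gene. The VPS4 ATPases, which take ESCRT filaments apart, were not called, with Vps4a at -0.01 ± 0.06 and -0.04 ± 0.05 and Vps4b at -0.01 ± 0.04 and -0.03 ± 0.04. Vps4a exceeded Vps4b 6.79-fold per kb.

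Among the GARP and EARP tethers, all 5 genes had values above 0 in BDNF het-Met mice and 1 was called. Vps50 (chromosome 6, 3498382 to 3603531, plus strand), the subunit that sets EARP apart and that acts in dense-core vesicle formation, rose by 0.11 ± 0.05 (limma p 0.0489), a call that was lost with ordinary standard errors (p 0.0552) and with centring on the expression quintile (0.08, p 0.154), and was at -0.01 ± 0.06 in WT mice (limma p 0.865). Its GARP counterpart Vps54, the gene mutated in the wobbler mouse, was at -0.07 ± 0.05 and 0.00 ± 0.05. The shared subunits Vps52 and Vps53 lay between 0.01 and 0.06 in both genotypes. Vps51 was at 0.66 log2 CPM, with standard errors of 0.19 and 0.18, and shares 11.8% of its exonic bases with Tm7sf2 on the same strand.

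A pair of members stands outside these complexes. Vps9d1 (chromosome 8, 123242356 to 123254348, minus strand), which carries the VPS9 domain of Rab5 activators, fell by 0.13 (standard error 0.05) in BDNF het-Met mice (limma p 0.0247) and was at -0.01 ± 0.06 in WT mice. Vps72 is a histone-exchange protein of the nucleus in spite of its symbol, and was at -0.10 ± 0.07 and -0.02 ± 0.06 (limma p 0.176 and 0.726).

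The genes that work with these complexes were read from 8 lists, again by the effect averaged over genotypes, for which 7.17% of all genes rose and 6.18% fell. Of their 121 genes in the tables, 7 rose and 11 fell in the average. In WT mice 0 rose and 3 fell, beside 2.25% and 1.57% of all genes, and in BDNF het-Met mice 8 rose and 7 fell, beside 6.55% and 6.64%. Of 12 V-ATPase partner and assembly genes, 3 rose and 0 fell, with a median of 0.05. They were Dmxl1 (0.16 ± 0.04, limma p 0.0041), Wdr7 (0.12 ± 0.05, 0.0186) and Dmxl2 (0.14 ± 0.05, 0.0243). All of these belong to the rabconnectin-3 complex, which joins V1 to V0, and their longest transcripts are 12247, 7135 and 10614 bases. Of the 17 retromer partners and VPS10 receptors 4 rose and 1 fell, with a median of 0.03. Sorl1, a sorting receptor and Alzheimer disease risk gene, rose by 0.19 ± 0.07 (limma p 0.0159). Sort1, which encodes sortilin, a receptor of the BDNF precursor, rose by 0.13 ± 0.05 (limma p 0.0208). Snx5, a sorting nexin, fell by 0.14 with a standard error of 0.05 (limma p 0.0193). The longest transcripts of Sorl1 and Sort1 are 10715 and 6836 bases, and that of Snx5 is 2512.

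Of 36 lysosomal enzymes and membrane proteins 0 rose and 4 fell in the average, with a median of -0.06. Lamp1, a main protein of the lysosomal membrane, fell by 0.12 with a standard error of 0.04 (limma p 0.00636), and the ceramidase gene Asah1 by 0.11 with a standard error of 0.04 (limma p 0.0277). Within the genotypes, none of the 36 was called in WT mice. In BDNF het-Met mice 0 rose and 2 fell, beside 6.55% and 6.64% of all genes. Of the microglial markers 5 of 8 fell in BDNF het-Met mice, and all 8 had values below 0 (median -0.43). In the same mice 4 of 8 oligodendrocyte markers fell (median -0.35), and 4 of 7 astrocyte markers fell while 1 rose (median -0.25). The medians of the neuronal lists lay above 0 in these mice. Of the hippocampal principal neuron markers 3 of 8 rose (median 0.14), as did 2 of 8 general neuron markers (median 0.06), and none fell. In each of these lists 2 of 8 genes had values below 0. In WT mice the medians of the microglial, oligodendrocyte and astrocyte lists were -0.19, -0.09 and -0.05. Those of the hippocampal principal neuron and general neuron lists were -0.05 and 0.04 in WT mice, with no gene of either called. The part of these cell types in the lysosomal result was not tested, and in bulk tissue fewer cells of a type and less RNA per cell cannot be told apart. Choroid plexus markers had a median of -1.18 in WT animals and 0.16 in BDNF het-Met mice, with median standard errors of 1.44 and 1.33. Of these markers 0 of 10 were called in either, and at such errors only very large changes could pass.

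Of the MiT/TFE factors, the transcription factors of lysosomal genes, Tfeb fell by 0.29 with a standard error of 0.12 (limma p 0.0399), and Tfe3 (-0.03 ± 0.04) and Mitf (-0.01 ± 0.17) were not called. None of 11 Ragulator and Rag GTPase genes, which recruit mTORC1 to the lysosome next to the V-ATPase, was called, with a median of -0.02. In the COMMD and CCDC partners of retriever 1 of 10 fell (Commd7, by 0.10 with a standard error of 0.04, limma p 0.0173), and 0 rose. Of 20 other ESCRT genes 3 fell (Chmp6, Mvb12a and Chmp7, by 0.11, 0.15 and 0.07) and 0 rose. Of 12 other tether and PI3-kinase complex genes 1 fell (Rab5c, by 0.09 with a standard error of 0.03, limma p 0.0179).

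**Figure D4:**
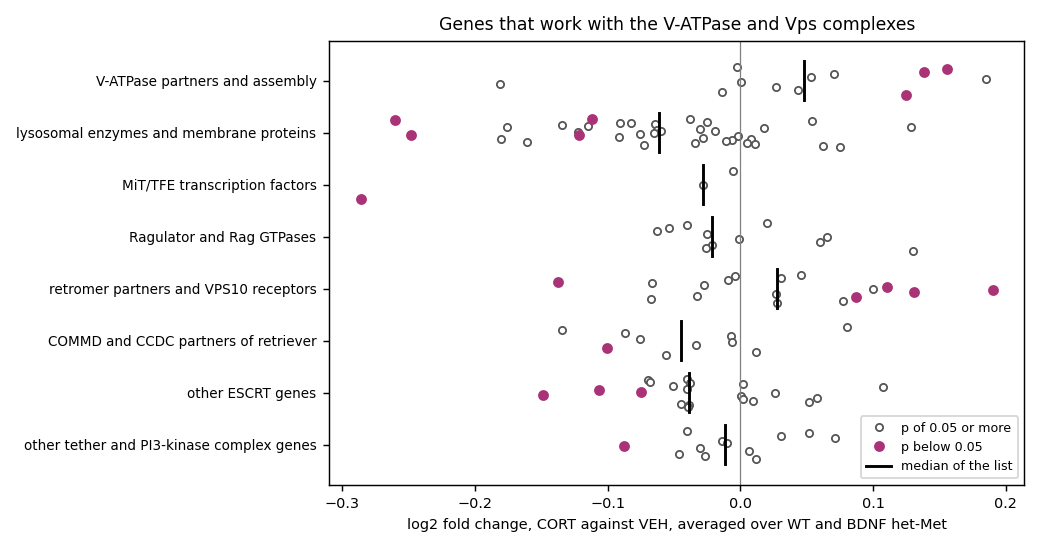
Log2 fold change under CORT averaged over WT and BDNF het-Met mice (x axis) of the genes on 8 lists that work with the V-ATPase and Vps complexes (y axis); filled points have an unadjusted p below 0.05 and black bars are list medians. The called points of the V-ATPase partner list lie right of 0 and those of the lysosomal list left of 0, and the medians run from -0.06 to 0.05.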

How the data were processed

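RNA-seq values of 12 libraries were analysed from 2 deposited tables, 1 per genotype. After quality filtering the authors used STAR for alignment to GRCm38 (Ensembl annotation), featureCounts for counting and limma-voom for a joint fit of the groups. For versions, the filter on weak genes, strandedness in counting and multi-mapped reads the sources used here give nothing. The deposited log2 values were the mean log2 CPM, the log2 fold change of VEH against CORT and an ordinary standard error. The deposited p-values were unadjusted and Benjamini-Hochberg adjusted, and the deposited scores were the moderated t and a joint F over 3 contrasts, with their degrees of freedom. The CORT effect within a genotype is therefore the authors' own fitted value, and its p-value measures the spread between pools of 2 animals. Averaged, difference and centred effects were computed here from those values. Their p-values use the fitted errors, and centring took each bin or quintile median as known.

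The fold change was read as VEH minus CORT from the order in the names of the comparisons, and the sign was turned. Of 6 genes whose direction under CORT the text of the study gives, 4 had that direction and Tnnt1 and Chn2 the opposite one. Yet the same text puts both in a module whose BDNF het-Met genes were higher under vehicle, as it does Usp43, and all of these were lower under CORT with the sign used here. Moderated standard errors are the fold change over t. Averages and differences over genotypes used both errors at the listed 10.91 total degrees of freedom, with Benjamini-Hochberg adjustment over all genes. The formulas were tried on simulated counts fitted with limma, with 3 libraries in each of 4 groups. That design may differ from the deposited fit, so the trial does not vouch for the p-values here. The spread between libraries beside a level was approximated from the ordinary standard error in BDNF het-Met mice taken as 3 against 3 libraries.

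Lengths and positions came from GENCODE M21 (GRCm38) by Ensembl identifier, which matched 17557 genes, 55 of 55 members included. Overlapping exons were read from it, and similar transcripts were searched with blastn 2.17.0. Promoters were matched to RefSeq by symbol. Members and lists were chosen with earlier results of these data known. Every member may be named, those called and the most abundant of each role group with full statistics, and on each partner list at most 3 genes by the smallest p of the average. On the lysosomal list 1 gene taken by this rule is not reported here. Alternatives were ordinary errors, centring on expression quintiles, a minimum of 0 log2 CPM, a p below 0.01, a fold change above 1.3 and, added later, centring on length bins.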

Additional observations from a re-analysis of the deposited data

How the results depend on the processing

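No paired analysis was possible because the tables hold no values per library, so a replicate block and leaving out each replicate were not run. The counts of members called moved by over 1.5 times in these cases. In WT, 2 became 1 with centring on the expression quintile or the length bin, beside 3.61% and 3.35% of all genes. They became 0 at a p below 0.01 or with a fold change above 1.3, beside 0.569% and 1.25% of all genes. In BDNF het-Met mice, 7 became 2 at a p below 0.01, 1 with centring on the length bin and 0 with the fold change minimum. The shares of all genes called in these cases were 3.59%, 11.2% and 3.24%. In the average, 5 became 3, 1 and 0 in the same order. For the difference, 0 became 2 (Vps33b and Vps35) with ordinary standard errors and 7 degrees of freedom, beside 3.42% of all genes. In WT these errors lost Vps13c and gained Atp6v0c. No called member turned its direction under any alternative in the comparison where it was called. Elsewhere directions could turn: centred on length, Vps13a and Vps13d went below 0 in WT, at -0.05 and -0.02. Centred on length, all members called in BDNF het-Met mice but Vps13c missed the threshold, though Vps50 (0.10) and Vps9d1 (-0.11) moved little, while Vps13a went to 0.07 and Vps13d to 0.03.

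Of 112 role group medians recomputed, 108 moved by less than the median standard error of the group. ESCRT-II in BDNF het-Met mice went from 0.38 to 0.030 when weighted by precision and to 0.013 without Vps25, which is weakly expressed. Centred on length, the VPS13 medians went from 0.17 to 0.022 in WT and from 0.21 to 0.10 in BDNF het-Met mice. With the longest transcript as length, the log2 level gap of Atp6v0a1 over Atp6v0a2 became 3.57, of Atp6v1g2 over Atp6v1g1 3.14, of Vps26b over Vps26a 0.79 (from 0.35), of Vps33a over Vps33b 2.02 and of Vps4a over Vps4b 2.03. Depth per library is unknown. Atp6ap1l, Atp6v1c2, Vps25 and Vps51 lie below 1 log2 CPM, where no change of ordinary size could be seen.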

Other observations

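The joint F spans 3 contrasts, and 3 times F less both squared t is an approximate remainder for the genotype contrast, without sign or fold change. It was below 0 in 610 of 17564 genes, which a squared statistic could not be, so small values and close ranks should not be read. Its median was 0.36 over the members and 0.43 over all genes, and its 95th percentile over all genes was 4.09. The highest values of members were those of Vps37d (5.53), Vps13a (4.25), Vps13d (3.86) and Vps50 (3.55). On chromosome 2, which carries Bdnf, the members within 15 Mb of it were Vps18 (119288740 to 119298453), with 1.54, and Vps39 (120316461 to 120353137), with 0.08. Vps16, 20.7 Mb from Bdnf and named after its value was seen, had 1.92.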
